A study of Mus musculus with 3 samples.

Results

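Immediate-early and heat shock genes were described as a set of 34 genes in single-cell libraries of mouse Achilles tendon and dorsal root ganglion (DRG). The genes were taken from a fixed list of names and matched to the gene symbols of each library. All 34 were found among the 33696 features of the tendon libraries and among the 35980 features of the DRG library. By role they comprised 17 transcription factors, 11 other immediate-early genes and 6 heat shock genes, and the 3 roles were kept apart throughout.

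Immediate-early genes are transcribed within minutes of a stimulus, without the need for new protein, because the factors that switch them on are already present in the cell. Growth factors, stretch, neuronal activity and wounding induce them, and so do warm enzymes and shear when a tissue is taken apart into single cells. Heat shock genes are induced by unfolded protein through heat shock factors, although some members, such as Hspa8 and Hsp90aa1, are made in large amounts in unstressed cells. In tendon both groups are known as responses to load, and in sensory neurons several of the transcription factors serve as marks of recent firing or of nerve injury.

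The study compared Achilles tendon with and without its sural sensory nerve and profiled the ganglia that innervate the tendon. In the droplet assay (10x Genomics Chromium) a barcode marks the droplet, and so the cell, while captured transcripts are counted by short random tags called unique molecular identifiers, or UMIs. Each group was a single library: replicates were lacking, and p-values are therefore left out. The 95% intervals are exact (Poisson for levels, conditional binomial for ratios, Clopper-Pearson for shares) and cover counting error only.

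All mice were of the C57BL/6 strain. In the neurectomy group (5 mice) the sural nerve was cut 1 week before the ankle was held in dorsiflexion for 4 weeks. In the sham group (5 mice) the biceps femoris was opened to expose the nerve and the same 4 weeks of dorsiflexion followed, so both tendon groups carry the overstrain model and neither is an unloaded control. The labels do not give the age of these mice or say how the 5 mice of a group were combined. For the DRG library, mice aged 4 weeks received 5 µL of AAV-PHP.S-tdTomato, an adeno-associated virus carrying a red fluorescent reporter, in the left Achilles tendon sheath. The ganglia, L4 to S1, were collected 4 weeks after the injection as a pool of 18 from 6 mice. The design text names ipsilateral ganglia alone, whereas a protocol names ipsilateral and contralateral ones, and a treatment label says lentivirus in place of AAV. Enzymes at 37 °C freed the cells: collagenase I, collagenase P and dispase II for tendon, followed by lysis of red cells, and papain, collagenase A and dispase II for ganglia, followed by an Optiprep gradient. Every level below was therefore measured after warm digestion, and no undigested sample was analysed here.

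The libraries held 25067 (neurectomy), 32951 (sham) and 23566 (DRG) barcodes with 79750679, 133570956 and 239515477 UMIs, and 21992, 25306 and 22384 barcodes passed filters on genes and mitochondrial UMIs. Ddx3y, Uty, Kdm5d and Eif2s3y, all Y-linked, together had 39 UMIs after neurectomy and 6366 after sham, whereas Xist gave 55528 and 61571 UMIs, so surgery and the sex of the pooled mice cannot be told apart between the tendon libraries. The tendon libraries shared 1001 barcode sequences, 569 of which passed the filters in both, and of 132 gated to a class in both, 109 fell in the same class. The DRG library shared 153 and 189 with the neurectomy and sham libraries, and of the 33 and 63 gated to a class in both, none fell in the same class. The DRG gate had no tenocyte, Pi16 fibroblast, stromal fibroblast or lymphatic class, so tendon barcodes of those classes could not match by name. That outcome therefore cannot be set beside the match between the tendon libraries. Barcodes entered a class when at least 3 of its marker genes had a UMI and its share of markers with a UMI led every other class by at least 0.2. The classes are named "-like" because they are ranges of a marker score. Between 9 and 1263 tendon barcodes and between 11 and 200 DRG barcodes of a class had exactly 3 markers or lay within 0.05 above that lead. Among the 10 leading genes of each class, markers of its own type outnumbered those of any other type. Only 1 own marker was among them in the neuron-like, satellite glia-like and T and NK-like classes of the DRG library. Scx and Fmod were among the 10 of the tenocyte-like class in both tendon libraries, and Tnmd in the neurectomy library alone. The gate used the same markers, so this outcome does not test the class names. The gate left 12417, 9133 and 7163 barcodes without a class in the neurectomy, sham and DRG libraries.

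Promoter sequence is given first, to show the short motifs through which genes of these families are known to be induced. The RefSeq table of mouse gene starts (GRCm38.p6) held 27 of the 34 genes: 14 transcription factors, 9 other immediate-early genes and 4 heat shock genes. The window searched was the 250 bases before the start, on both strands. The letters TGACG, the half-site of the cyclic AMP response element bound by CREB and related factors, stood before 11 of the 14 transcription factors, 3 of the 9 other immediate-early genes and 1 of the 4 heat shock genes, against 19.8% of 27025 genes. The transcription factors with a match were Fos, Fosb, Junb, Egr2, Klf2, Klf4, Maff, Npas4, Nr4a1, Nr4a2 and Nr4a3. The full element TGACGTCA, which contains the half-site, stood before Maff, Btg2 and Dusp1, against 1.77% of all genes. The CArG box, the site of serum response factor, was matched before Egr2, Dusp5 and Zfp36, against 1.62% of all genes. The letters GAANNTTC, the core bound by heat shock factors, stood before Hspa1a and Hspa1b and before 1 transcription factor, Fosl2, against 7.73% of all genes. The full heat shock element, in which that core is followed by another GAA after 2 bases, was found before none of the 27 genes and before 0.514% of all genes. A match describes letters in this window and is not evidence of a bound site.

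None of these motifs was held by 1 role alone or by all genes of a role: the half-site and the CArG box stood before genes of both immediate-early roles, and the heat shock core also before Fosl2. The stretches below show examples of the motifs, in capitals within lower case, 5′ to 3′ on the strand of the gene. The pair of Hspa1 genes on chromosome 17 carry the heat shock core 104 bases before each start (chr17:34972243-34972270 and chr17:34959325-34959352, both on the minus strand).
Hspa1a: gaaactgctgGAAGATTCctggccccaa
Hspa1b: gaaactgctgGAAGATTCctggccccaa
Fos (chr12:85473751-85473838, plus strand), Fosb (chr7:19310091-19310115, minus strand), Junb (chr8:84978840-84978864, minus strand) and Nr4a1 (chr15:101266603-101266820, plus strand) carry the TGACG half-site, which reads CGTCA where it lies on the other strand.
Fos: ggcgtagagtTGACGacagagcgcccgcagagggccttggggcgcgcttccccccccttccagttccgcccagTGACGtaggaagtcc
Fosb: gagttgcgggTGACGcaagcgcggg
Junb: ttcctgacagTGACGcgagccgcct
Nr4a1: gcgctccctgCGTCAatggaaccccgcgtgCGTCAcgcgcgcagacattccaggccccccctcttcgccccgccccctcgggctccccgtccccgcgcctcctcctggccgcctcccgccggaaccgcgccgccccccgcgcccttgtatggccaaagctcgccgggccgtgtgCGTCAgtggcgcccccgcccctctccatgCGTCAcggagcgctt
Zfp36 (chr7:28379267-28379296, minus strand) carries a CArG box.
Zfp36: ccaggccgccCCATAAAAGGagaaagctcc

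Hspa1a and Hspa1b were identical at 247 of the 250 bases before the start. Their transcripts of 2967 and 2803 bases shared 58.8% and 62.3% of their stretches of 50 bases. How reads were divided between them is therefore uncertain, and their sum is given beside each.

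In tendon the transcription factors were abundant in every class. Their summed level, in UMIs per 1000000 UMIs of the class (CPM), ranged from 4088 CPM in skeletal muscle-like barcodes to 19072 CPM in mast-like barcodes of the neurectomy library. In the sham library it ranged from 5983 CPM in lymphatic endothelial-like to 9473 CPM in stromal fibroblast-like barcodes. In tenocyte-like barcodes, whose cells build the tendon's collagen, the sum was 6868 CPM after neurectomy and 6994 CPM after sham. The other immediate-early genes summed highest in macrophage-like barcodes, at 5273 and 4438 CPM, against 1924 and 1775 CPM in tenocyte-like barcodes. Heat shock genes summed to between 1030 and 1724 CPM over 10 classes after neurectomy and between 951 and 1709 CPM over 7 classes after sham, with macrophage-like barcodes highest in both. The highest class was thus 4.67 times the lowest for transcription factors and 1.67 times for heat shock genes in the neurectomy library, and 1.58 and 1.80 times in the sham library, whose gate gave no mast-like or muscle-like class of 50 barcodes. Over the 7 classes that both libraries held, the neurectomy sums ran from 6868 to 11233 CPM for transcription factors and from 1079 to 1724 CPM for heat shock genes, so the wider range of the former there came from the mast-like and muscle-like classes.

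**Figure D1:**
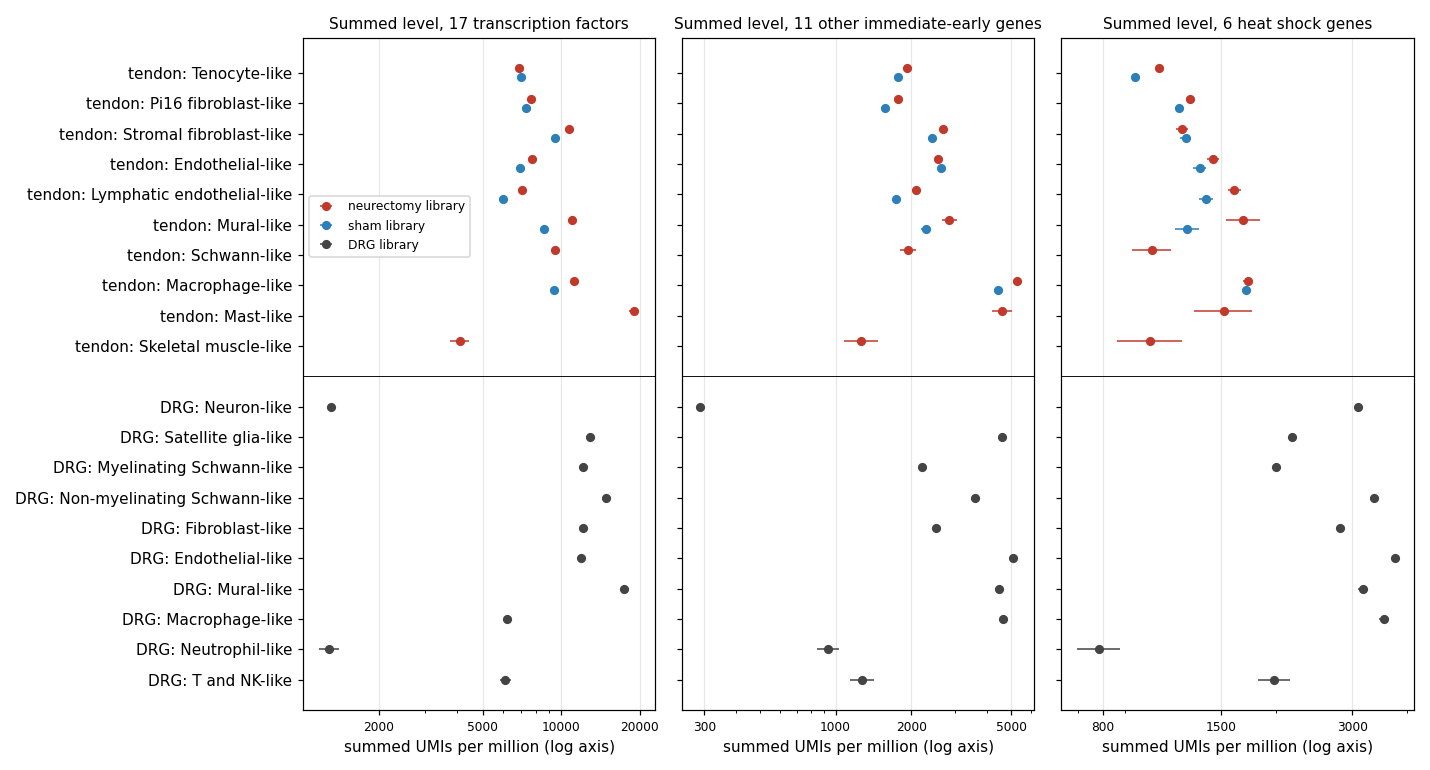
Summed level of the 17 transcription factors, 11 other immediate-early genes and 6 heat shock genes in each gated class, in CPM on a log axis, with points for the neurectomy (red), sham (blue) and DRG (grey) libraries and bars for 95% counting intervals. The neuron-like and neutrophil-like DRG classes lie far to the left for transcription factors (1307 and 1291 CPM), and neuron-like barcodes lie among the other DRG classes for heat shock genes (3092 CPM).

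Fos encodes an AP-1 factor, one of a family whose products pair to bind DNA. Its level in tendon in the neurectomy and sham libraries was 1452 and 1571 CPM in tenocyte-like, 1295 and 1196 in Pi16 fibroblast-like, 2277 and 2151 in stromal fibroblast-like, 1305 and 1178 in endothelial-like, 1317 and 1412 in lymphatic endothelial-like, 2338 and 2363 in mural-like, and 2271 and 2069 in macrophage-like barcodes. The order of classes was close in both libraries, with stromal fibroblasts, mural cells and macrophages high and both kinds of endothelium and Pi16 fibroblasts low. In barcodes thinned to 1000 UMIs, Fos had a UMI in 62.0% (60.5 to 63.4%) of 4311 tenocyte-like barcodes after neurectomy and in 67.2% (66.2 to 68.2%) of 9117 after sham; before thinning the shares were 75.5% and 77.7%. Fos was highest in the 62 mast-like barcodes of the neurectomy library, at 4993 CPM (4582 to 5431), and the sham library held 40 mast-like barcodes, under the minimum of 50.

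Junb, a partner of Fos, was highest in macrophage-like barcodes, at 2255 CPM after neurectomy and 1668 after sham, and in tenocyte-like barcodes it was 671 and 587 CPM. Fosb stood at 1483 and 1328 CPM in stromal fibroblast-like barcodes and at 871 and 915 CPM in tenocyte-like barcodes. Jund, an AP-1 member that is made constantly in most cells, varied least of the 6 transcription factors with the highest summed level, over the classes compared below, from 843 to 1223 CPM after neurectomy and from 744 to 1034 CPM after sham.

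Each other family of factors had its own order of classes. Egr1, a zinc-finger factor with roles in tendon development and repair, stood at 1708 and 1268 CPM in stromal fibroblast-like barcodes, against 791 and 667 CPM in tenocyte-like barcodes. Egr2, a factor required for myelination, was highest in Schwann-like barcodes of the neurectomy library at 160 CPM and was between 9.35 and 72.0 CPM in the 6 compared classes there. Klf4, a factor of endothelium and connective tissue, was highest in Pi16 fibroblast-like barcodes at 1350 and 1394 CPM. Klf2, which is induced by blood flow, was highest in endothelial-like barcodes at 722 and 664 CPM, and Klf6 in the neurectomy library was highest in mast-like barcodes (1729 CPM) and next in macrophage-like barcodes (1500 CPM, and 1324 CPM after sham). The orphan nuclear receptors Nr4a2 and Nr4a3 were highest in mast-like barcodes, at 1140 and 1370 CPM, whereas Nr4a1 was highest in mural-like barcodes at 593 CPM. Maff, a small Maf factor, was highest in lymphatic endothelial-like barcodes at 144 and 83.6 CPM. Fosl1, Fosl2 and Egr3 reached at most 54.8, 276 and 313 CPM in any tendon class. Npas4, a factor of active neurons, had 6 UMIs over all tendon classes.

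Of the other immediate-early genes, Dusp1, a phosphatase that switches off MAP kinases, stood at 1623 and 1152 CPM in macrophage-like barcodes and at 395 and 404 CPM in tenocyte-like barcodes. Zfp36, which speeds the decay of inflammatory mRNAs, showed the same contrast, with 1251 and 983 CPM in macrophages and 338 and 255 CPM in tenocytes. Ier3, a survival gene, was 791 and 887 CPM in macrophage-like and 304 and 241 CPM in tenocyte-like barcodes. Btg2, an antiproliferative gene, was highest in mural-like barcodes at 632 and 646 CPM. Ier2 lay between 153 and 290 CPM in the 6 compared classes of both libraries. Socs3, the feedback inhibitor of JAK and STAT signalling, lay between 128 and 372 CPM in the same classes. The highest level in any tendon class was 265 CPM for Rhob, a GTPase of the cell cortex, 285 CPM for Ier5, and 59.5 and 46.0 CPM for the MAP kinase phosphatases Dusp5 and Dusp2. Arc, a gene of active synapses, was at most 20.0 CPM, in Schwann-like barcodes.

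Levels were not scaled to transcript length, so they are compared between classes and not between genes. Hspa8, the constitutive relative of the inducible Hsp70 pair, was highest in macrophage-like barcodes at 1067 and 1102 CPM and stood at 631 and 590 CPM in tenocyte-like barcodes. Hsp90aa1, the inducible cytosolic Hsp90, was 292 and 217 CPM in tenocyte-like barcodes and at most 390 CPM in any tendon class. The Hspa1a and Hspa1b sum, the strictly inducible Hsp70, was lowest in tenocyte-like barcodes at 78.1 CPM (74.6 to 81.7) after neurectomy and 82.7 CPM (80.2 to 85.1) after sham. In lymphatic endothelial-like barcodes that sum was 224 and 191 CPM, in macrophage-like barcodes 204 and 221 CPM, and in mural-like barcodes 351 and 163 CPM. The mural values rested on 100 and 121 UMIs (286 to 427 and 135 to 194 CPM). With 81 barcodes after neurectomy, the mural class was under the 100 set for comparing the libraries. Dnajb1, the Hsp40 partner of Hsp70, lay between 32.4 and 57.6 CPM, and Hsph1, an Hsp110 exchange factor, between 28.3 and 90.2 CPM, in the 6 compared classes.

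The neurectomy and sham libraries were compared to see how the genes differed between denervated and innervated tendon. Classes of 100 barcodes or more in both libraries were compared, and there were 6: tenocyte-like (5539 barcodes after neurectomy, 13037 after sham), Pi16 fibroblast-like (628, 643), stromal fibroblast-like (681, 337), endothelial-like (765, 557), lymphatic endothelial-like (692, 566) and macrophage-like (898, 773). A gene entered in a class with at least 50 UMIs over both libraries and at least 10 CPM in the higher one. Of 204 gene and class pairs 187 entered. Npas4 and Arc entered in none of the 6 classes, Dusp2 did not enter in tenocytes, Pi16 fibroblasts or stromal fibroblasts, and Egr2 did not enter in Pi16 fibroblasts or the lymphatic class.

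Of the 187 pairs, 4 were at least 2-fold higher after neurectomy and 0 were at least 2-fold lower, against 1.62% higher and 0.74% lower over 54759 pairs of all genes, so the members' share of higher pairs lay near that of all genes. All 4 were transcription factors: 1 of 16 that entered in the tenocyte class and 3 of 15 in the lymphatic class, where 1.36% and 1.57% of all genes were that much higher. None of the members was 2-fold higher in Pi16 fibroblasts (0.918% of all genes), stromal fibroblasts (1.16%), endothelium (1.56%) or macrophages (3.18%). None was 2-fold lower in tenocytes (0.483% of all genes), Pi16 fibroblasts (0.535%), stromal fibroblasts (1.07%), endothelium (0.52%), the lymphatic class (0.907%) or macrophages (0.914%).

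Fosl1, an AP-1 subunit without an activation domain of its own, stood at 39.8 CPM (958 UMIs) in tenocyte-like barcodes after neurectomy and at 15.5 CPM (835 UMIs) after sham, a ratio of 2.57 (2.34 to 2.83). In lymphatic endothelial-like barcodes Fosl1 was 29.7 CPM (62 UMIs) against 12.6 CPM (26 UMIs), a ratio of 2.35 (1.47 to 3.88). It was also higher by its interval in Pi16 fibroblast-like barcodes (54.8 against 36.5 CPM, ratio 1.50) and stromal fibroblast-like barcodes (35.8 against 23.1 CPM, ratio 1.55). In endothelial-like (18.3 and 20.2 CPM) and macrophage-like barcodes (21.0 and 20.4 CPM) its intervals held equal levels.

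Egr3, a relative of Egr1, was 50.8 CPM after neurectomy and 20.9 CPM after sham in the lymphatic class, a ratio of 2.43 (1.69 to 3.55), with 106 and 43 UMIs. Nr4a2 in that class was 99.8 and 47.6 CPM, a ratio of 2.10 (1.64 to 2.69), with 208 and 98 UMIs. Neither gene was 2-fold apart in another class: Egr3 had log2 ratios from -0.30 in stromal fibroblasts to 0.53 in macrophages, and Nr4a2 from -0.27 in Pi16 fibroblasts to 0.10 in tenocytes. The 3 lymphatic calls rested on few UMIs and were lost under some settings. With each barcode given equal weight their log2 ratios were 0.77 for Egr3, 0.93 for Nr4a2 and 0.52 for Fosl1, all short of 2-fold. Among barcodes with Xist and no Y-linked UMI, Nr4a2 in the lymphatic class was 0.76, short of 2-fold, and Hspa1a there passed 2-fold at 1.62, beside 0.23 with all barcodes, so under that setting a heat shock gene was among the calls. Fosl1 in tenocytes kept its call under each of 11 alternatives, with log2 ratios from 1.23 to 1.43, with 1.36 among barcodes with Xist and no Y-linked UMI and 1.23 without shared barcodes.

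**Figure D2:**
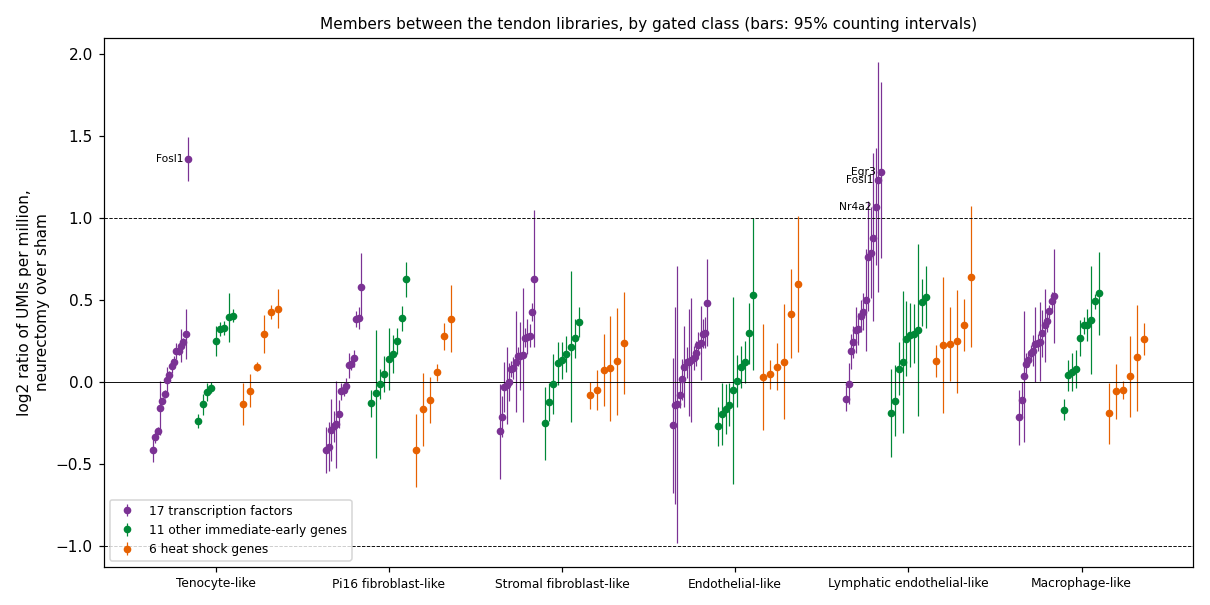
Log2 ratio of CPM, neurectomy over sham, for each member that entered in each of the 6 tendon classes, coloured by role, with bars for 95% counting intervals and dashed lines at 2-fold. The 4 labelled points above the upper dashed line are Fosl1 in tenocyte-like barcodes (1.36) and Egr3 (1.28), Fosl1 (1.23) and Nr4a2 (1.07) in lymphatic endothelial-like barcodes, and no point lies below the lower one.

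Smaller differences recurred over classes for a few genes. An interval above equal levels was found in 97 of the 187 pairs and one below in 30, against 18% and 13.7% of all gene and class pairs. Among transcription factors the intervals lay above equal levels for 9 and below for 5 of 16 in tenocytes (39.3% and 18.7% of all genes), and for 6 and 7 of 15 in Pi16 fibroblasts (19% and 15.4%). They lay above for 8 and below for 2 of 16 in stromal fibroblasts (11.2% and 11.7%), and for 8 and 0 of 16 in endothelium (11% and 8.18%). In the lymphatic class they lay above for 13 and below for 1 of 15 (11% and 11.2%), and in macrophages for 13 and 1 of 16 (16.9% and 17.3%). The lymphatic and macrophage classes thus had the highest counts above. Intervals narrow with UMIs, and the members were abundant genes, so the counts of intervals are not matched for abundance. Of the 30 members that entered in all 6 classes, 3 had an interval above equal levels in every class, namely Egr1, Junb and Socs3, against 0.878% of 7177 genes, and none had one below in every class, against 0.334%. For Egr1 the log2 ratio was 0.25 in tenocytes, 0.39 in Pi16 fibroblasts, 0.43 in stromal fibroblasts, 0.23 in endothelium, 0.43 in lymphatic endothelium and 0.50 in macrophages. For Junb it ranged from 0.15 in Pi16 fibroblasts to 0.44 in macrophages, and for Socs3 from 0.27 to 0.63, the latter in Pi16 fibroblasts. The lowest of the class ratios stayed above 0 under all 11 alternatives for Egr1 (at least 0.09) and Junb (at least 0.07). For Socs3 it turned to -0.30 with each barcode given equal weight and to -0.26 without the deepest 5% of barcodes, both in the lymphatic class. Zfp36 had an interval above equal levels in 5 of the 6 classes, with log2 ratios from 0.12 to 0.41.

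Several members differed in direction between classes. Fos had log2 ratios of -0.11 in tenocytes and -0.10 in lymphatic endothelium, and between 0.08 and 0.15 in the other 4 classes. In endothelium the direction depended on depth. Fos there was 1020 CPM after neurectomy and 1688 after sham in barcodes of 500 to 1000 UMIs. It was 1232 and 1633 CPM at 1000 to 2000 UMIs, and 1273 and 1688 CPM at 2000 to 5000. Only at 5000 to 20000 UMIs was it higher after neurectomy, at 1468 and 1042 CPM. Nr4a3 was lower after neurectomy in tenocytes (85.5 against 114 CPM, log2 -0.41) and Pi16 fibroblasts (90.7 against 121 CPM, -0.41) and higher in the lymphatic class (45.6 against 24.8 CPM, 0.88). Jund was lower in tenocytes (843 against 1033 CPM, -0.29) and higher in the lymphatic class (932 against 744 CPM, 0.33). Dusp1 was higher in macrophages (1623 against 1152 CPM, 0.49) and in the lymphatic class (455 against 324 CPM, 0.49), and in the other 4 classes its log2 ratio lay between -0.14 and 0.13. The differences between classes were not tested, since each class had 1 library per group.

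Summed over the 17 transcription factors, the log2 ratio was -0.03 in tenocytes (6868 against 6994 CPM), 0.06 in Pi16 fibroblasts, 0.18 in stromal fibroblasts, 0.16 in endothelium, 0.24 in the lymphatic class (7068 against 5983 CPM) and 0.26 in macrophages (11233 against 9391 CPM). The median of the 6 was 0.17. Directions turned under some settings: the endothelial value was -0.02 with each barcode given equal weight and up to 0.37 at 5000 UMIs or more, and the tenocyte value ran from -0.09 to 0.03, above 0 among Xist barcodes and at 5% mitochondrial UMIs or less. For the 11 other immediate-early genes the median was 0.17, from -0.04 in endothelium to 0.26 in the lymphatic class, and the endothelial and tenocyte values changed sign under some settings. For the 6 heat shock genes it was 0.10, from -0.03 in stromal fibroblasts to 0.22 in the lymphatic class, and the values of stromal fibroblasts, macrophages and Pi16 fibroblasts changed sign under some settings. The sum of a role is led by its most abundant genes. Taken gene by gene, the median log2 ratio of the transcription factors that entered was 0.07 in tenocytes, beside 0.06 for all 8901 genes there. In the lymphatic class it was 0.43 beside -0.02 for all 8712 genes, and in macrophages 0.24 beside -0.02 for all 9084. In Pi16 fibroblasts it was -0.05 beside 0.02 for all genes, in stromal fibroblasts 0.14 beside -0.01, and in endothelium 0.13 beside 0.02. Heat shock genes had medians of 0.20 in tenocytes, 0.24 in the lymphatic class and -0.00 in macrophages. Their medians were -0.02 in Pi16 fibroblasts, 0.08 in stromal fibroblasts and 0.11 in endothelium. Among them Hspa8 stayed between -0.08 and 0.13 in all 6 classes. Hsp90aa1 was higher by 0.43 in tenocytes and 0.35 in the lymphatic class, and the Hspa1a and Hspa1b sum was 78.1 against 82.7 CPM in tenocytes and 131 against 151 CPM in Pi16 fibroblasts.

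Other values also differed between the tendon libraries. Genes of the contractile apparatus of skeletal muscle, 8 of them summed, were higher after neurectomy in all 6 classes, with a median log2 ratio of 3.09 and a range from 1.82 to 4.78, from 7.78 to 20.1 CPM after sham to 40.4 to 213 CPM after neurectomy, and the lymphatic class had the largest value. Median depth differed as well: macrophage-like barcodes had 1705.5 UMIs after neurectomy and 8468 after sham, Pi16 fibroblast-like 4653.5 and 17939, and stromal fibroblast-like 2082 and 9245, whereas the lymphatic class had 1532 and 1427. Tenocyte markers in lymphatic endothelial-like barcodes were at 10.6% of their tenocyte level after neurectomy and at 6.23% after sham. The part of muscle RNA in the ratios was not tested.

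Further genes of both pathways were counted by the same 2-fold rule and also summed. Of 32 further immediate-early genes, between 26 and 28 entered in a class. At least 2-fold higher were Csrnp1, a factor of the early response, in the lymphatic class and Ccn1, a matricellular gene, in macrophages, and at least 2-fold lower was Ccn2, its relative, in stromal fibroblasts, with none in the other 3 classes. These were 1 of 26, 1 of 27 and 1 of 28 genes that entered, where 1.57%, 3.18% and 1.07% of all genes were that far apart in that direction. Of 20 further heat shock genes, of which 19 or 20 entered, Cryab, a small heat shock protein abundant in muscle, was at least 2-fold higher in endothelium, lymphatic endothelium and macrophages, and no other passed in any class. Cryab was 1 of 20, 1 of 20 and 1 of 19 that entered, where 1.56%, 1.57% and 3.18% of all genes were that much higher. Summed, the further immediate-early genes had a median log2 ratio of 0.03, from -0.07 in Pi16 fibroblasts to 0.27 in the lymphatic class. In macrophages their sum was at 0.02 beside 0.26 for the 17 transcription factors, and in stromal fibroblasts at 0.03 beside 0.18. The summed further heat shock genes had a median of 0.15, from 0.01 in stromal fibroblasts to 0.32 in tenocytes. Jun, the main partner of Fos, was 781 and 782 CPM in tenocytes, with log2 ratios from -0.00 to 0.25 over the 6 classes. Atf3, a stress-induced relative, was higher in endothelium (297 against 198 CPM, log2 0.59) and in the lymphatic class (332 against 219 CPM, 0.60) and 700 against 730 CPM in macrophages.

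In the ganglia the members set neurons apart from most other cells. The 10 DRG classes were neuron-like (1359 barcodes), satellite glia-like (1845), myelinating Schwann-like (7237), non-myelinating Schwann-like (993), fibroblast-like (1900), endothelial-like (695), mural-like (496), macrophage-like (440), neutrophil-like (130) and T and NK-like (96). The 17 transcription factors summed to 1307 CPM (1297 to 1318) in neuron-like barcodes and to between 6108 and 17441 CPM in the 8 classes other than neurons and neutrophils. Neutrophil-like barcodes had 1291 CPM (1182 to 1408). The other immediate-early genes summed to 289 CPM in neurons, 932 CPM in neutrophils and between 1276 and 5070 CPM in the other 8. Against the median of the 9 other classes, neurons were 9.24-fold lower for transcription factors and 12.4-fold lower for other immediate-early genes. For heat shock genes neurons had 3092 CPM beside a median of 2808 CPM, and the lowest class was neutrophils at 784 CPM.

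Counted gene by gene, 25 of the 31 members that entered were at least 4-fold lower in neurons than the median of the other classes, after adding 1 CPM to both, where 9.76% of 9985 genes were that much lower. They comprised 15 of 16 transcription factors, 8 of 9 other immediate-early genes and 2 of 6 heat shock genes, Hspa1a and Hspa1b. None was 4-fold higher, where 19.4% of all genes were. Egr2, Rhob and Dnajb1 were lower by less than 4-fold (3.47, 2.01 and 2.30-fold), Hsph1, Hspa8 and Hsp90aa1 were higher by less than 4-fold (2.57, 1.30 and 1.77-fold), and Npas4, Dusp2 and Dusp5 did not enter. In neutrophils 13 of 16 transcription factors, 3 of 10 other immediate-early genes and 4 of 6 heat shock genes were 4-fold lower, where 19.8% of all genes were.

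**Figure D3:**
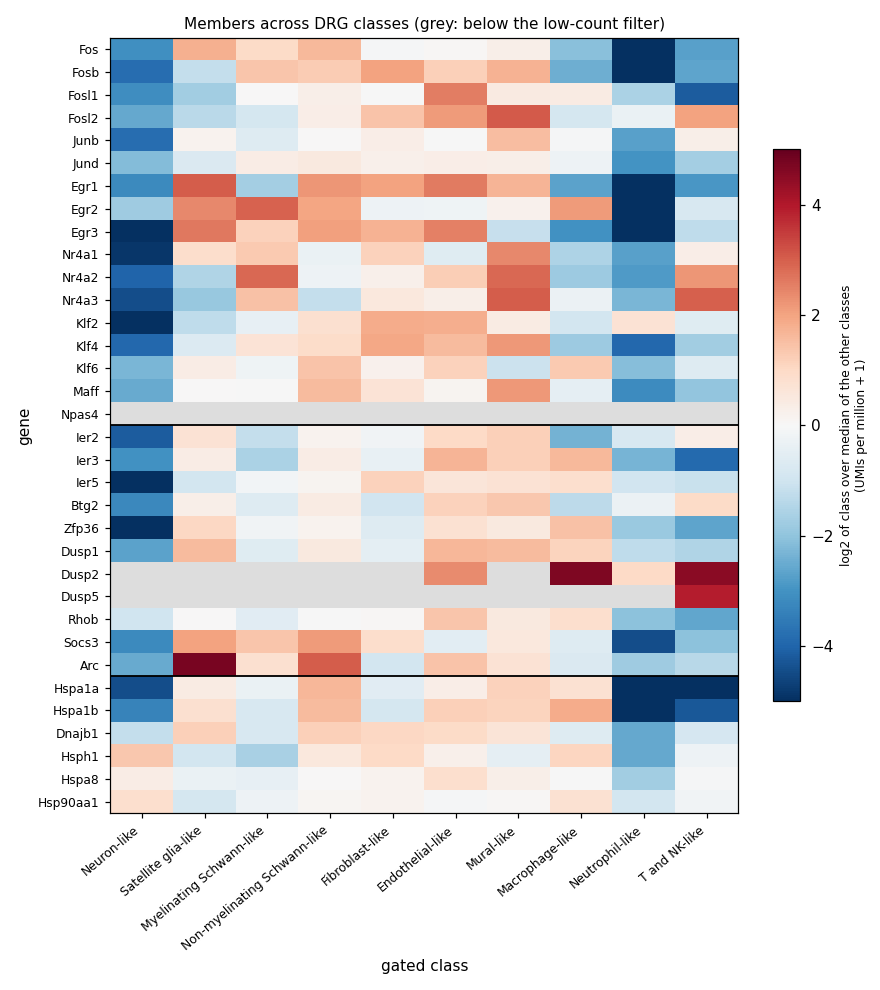
Log2 of the level in each DRG class over the median of the other classes, in CPM plus 1, for the 34 members in rows (transcription factors, other immediate-early genes and heat shock genes from top to bottom, divided by lines) and the 10 classes in columns, with colours ending at 5 in either direction and grey below the low-count filter. Neurons are blue for the 25 members at least 4-fold lower and pale red for Hsph1, Hspa8 and Hsp90aa1, and the red cells of Egr1, Egr3 and Arc in satellite glia and of the Nr4a genes in mural cells stand out.

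Fos, the usual mark of neuronal activity, was 210 CPM in neuron-like barcodes. In the other classes it was 5857 CPM in satellite glia-like, 5328 in non-myelinating Schwann-like, 3296 in myelinating Schwann-like, 2120 in mural-like, 1777 in endothelial-like, 1715 in fibroblast-like, 413 in macrophage-like, 271 in T and NK-like and 52.8 in neutrophil-like barcodes. The 3 glial classes thus led, and leukocytes and neurons came last. With each barcode thinned to 1000 UMIs, Fos had a UMI in 20.4% (18.1 to 22.9%) of 1156 neurons, against 93.2% (92.0 to 94.3%) of 1839 satellite glia, and before thinning in 71.5% and 98.5%. The share in thinned neutrophils was 8.47% (4.14 to 15.0%) of 118 barcodes, and free RNA in the droplets can give a share of this kind. Median depth was 33888 UMIs in neurons, 5552 in satellite glia and 1827.5 in neutrophils.

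Junb was 109 CPM in neurons and reached 4397 CPM in mural-like barcodes (pericytes and vascular smooth muscle). Jund was 694 CPM in neurons, its lowest level but for the 394 CPM of neutrophils, and between 958 and 3676 CPM elsewhere. Fosb was 68.2 CPM in neurons and highest in fibroblasts, at 1665 CPM. Egr1 was 59.3 CPM in neurons and 1397 CPM in satellite glia, and Egr3 was 0.998 CPM and 225 CPM. Nr4a1, Nr4a2 and Nr4a3 were 8.21, 11.9 and 4.43 CPM in neurons, the lowest of any class for each. Klf2 and Klf4 were 4.34 and 17.9 CPM there. Npas4 had 117 UMIs over all DRG classes and was 2.24 CPM in neurons. Arc, another activity gene, was 1.10 CPM in neurons and 193 CPM in satellite glia, the glia wrapped around each neuronal cell body.

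Of the 6 heat shock genes, Hsp90aa1, Hsph1 and Hspa8 were above the median of the other classes in neurons, and Dnajb1, Hspa1a and Hspa1b were below it. Hsp90aa1 was 1203 CPM and Hsph1 171 CPM, in each case the highest of the 10 classes, beside 369 to 1156 CPM and 12.6 to 139 CPM in the others. Hspa8 was 1608 CPM, second to endothelium at 2194 CPM. Dnajb1 was 73.2 CPM beside a median of 169.9 CPM, 2.30-fold lower, within the range of 27.6 to 248 CPM of the other classes. The Hspa1a and Hspa1b sum was 36.6 CPM (34.9 to 38.3) in neurons, against 1056 CPM in non-myelinating Schwann-like, 910 in macrophage-like, 752 in mural-like, 602 in endothelial-like, 526 in satellite glia-like, 342 in myelinating Schwann-like and 306 in fibroblast-like barcodes. It had 1 UMI in neutrophils (2.51 CPM, 0.0636 to 14.0) and 5 in T and NK-like barcodes (18.3 CPM). The 20 further heat shock genes summed to 6046 CPM in neurons, within the range of 1382 to 8819 CPM of the other classes, and the 32 further immediate-early genes to 2605 CPM, below the 2929 to 21416 CPM of all 9 others. Jun was 108 CPM and Atf3, which marks injured sensory neurons, 73.7 CPM in neurons. In T and NK-like and neutrophil-like barcodes Jun was 36.6 and 22.6 CPM, the only lower values. In satellite glia Jun and Atf3 were 2358 and 432 CPM, and in non-myelinating Schwann-like barcodes 1912 and 1552 CPM.

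Depth was a measured difference between neurons and the rest, so the levels were also read within bands of UMIs per barcode. Transcription factors in neurons were 1138 CPM in 203 barcodes of 500 to 1000 UMIs, 1820 CPM in 156 of 1000 to 2000, 2161 CPM in 119 of 2000 to 5000, 1585 CPM in 113 of 5000 to 20000 and 1292 CPM in 768 deeper ones. Satellite glia had between 11696 and 13864 CPM in the bands from 1000 to 20000 UMIs, and myelinating Schwann-like barcodes 12144 to 12350 CPM, so neurons were below both classes in each of these bands. Heat shock genes in neurons were 5482 CPM in the shallowest band and 3049 CPM in the deepest. At matched depth, some DRG classes had more: 8819 CPM in macrophage-like and 5168 CPM in mural-like barcodes of 1000 to 2000 UMIs beside 4835 CPM in neurons, and 3821 CPM in endothelial-like barcodes of 5000 to 20000 UMIs beside 3630 CPM. In tenocytes the transcription factors lay between 6017 and 7545 CPM after neurectomy and between 6631 and 7332 CPM after sham over all 5 bands. In tendon endothelium they were lower after neurectomy at 500 to 1000 UMIs (6840 against 7817 CPM), 1000 to 2000 (7307 against 7783) and 2000 to 5000 (7265 against 8207). At 5000 to 20000 UMIs they were higher (8415 against 6817 CPM). The 27 DRG macrophage-like barcodes of 1000 to 2000 UMIs had 16789 CPM, against 6036 and 5341 CPM in the deeper bands.

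**Figure D4:**
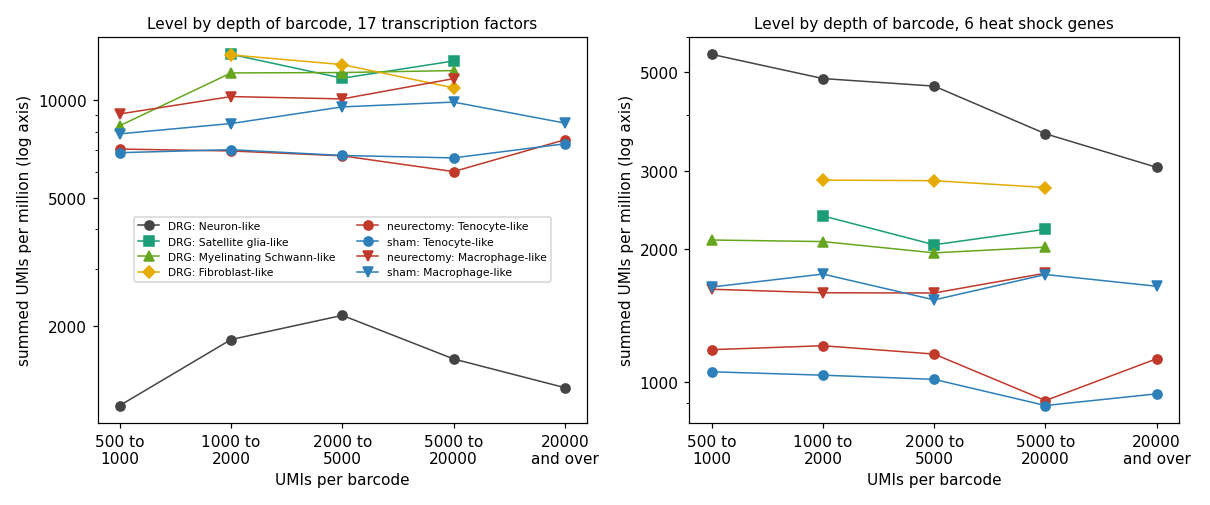
Summed level of the transcription factors (left) and heat shock genes (right), in CPM on a log axis, by UMIs per barcode, for selected DRG and tendon classes; bands under 20 barcodes are not drawn. Neurons lie between 1138 and 2161 CPM for transcription factors at every depth, below each other class drawn, and for heat shock genes above each other class drawn, at 3049 CPM or more; DRG endothelial, mural and macrophage-like barcodes are not drawn, and some of their bands lie above neurons for heat shock genes.

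Among the glia of the ganglion the members divided by class. In satellite glia, Egr1, Egr2, Egr3, Arc and Socs3 were at least 4-fold above the median of the other classes, 5 of the 31 that entered (11% of all genes were). Egr2 was 149 CPM there and Socs3 981 CPM, both beside the Fos of 5857 CPM given above. In myelinating Schwann-like barcodes, 2 members were, Egr2 at 223 CPM and Nr4a2 at 1262 CPM (9.53% of all genes). In non-myelinating Schwann-like barcodes, Egr1 (782 CPM), Egr3 (150 CPM), Socs3 (1077 CPM) and Arc (59.2 CPM) were (13.2%). This class also held the highest Jund (3676 CPM), Klf6 (790 CPM) and Hspa1a (547 CPM) of the 10. These counts lay near the share of all genes in each class.

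Outside the glia, mural-like barcodes had 6 members 4-fold above the median, all among the 16 transcription factors that entered (12.2% of all genes). They were Nr4a1 (1114 CPM), Nr4a2 (1255 CPM), Nr4a3 (771 CPM), Fosl2 (1028 CPM), Klf4 (806 CPM) and Maff (339 CPM). Endothelial-like barcodes had 4 of 16 transcription factors and 1 of 10 other immediate-early genes past 4-fold (12.6%). These were Fosl1 at 103 CPM, Fosl2 at 524 CPM, Egr1 at 1021 CPM, Egr3 at 209 CPM and Dusp2 at 27.7 CPM. The endothelial-like class also held the highest Ier3 (1440 CPM), Dusp1 (940 CPM) and Rhob (359 CPM). Fibroblast-like barcodes had 2 of 16 transcription factors past 4-fold, Fosb and Egr1 (696 CPM) (12.7%), and the highest Ier5 (431 CPM) and Klf2 (574 CPM).

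Leukocytes of the ganglion differed among themselves. Macrophage-like barcodes had Egr2 (125 CPM) and Dusp2 (140 CPM), a nuclear phosphatase of immune cells, past 4-fold higher (10.5% of all genes), and Fos, Fosb, Egr1, Egr3 and Ier2 past 4-fold lower (10% of all genes). Of 16 transcription factors that entered there 1 was higher and 4 lower, and of 10 other immediate-early genes 1 and 1. Macrophage-like Zfp36, at 1553 CPM, was the highest of the 10 classes. In T and NK-like barcodes Nr4a2 (801 CPM), Nr4a3 (757 CPM), Fosl2 (486 CPM), Dusp2 (128 CPM) and Dusp5 (73.1 CPM) were past 4-fold higher (11.2%), and 10 members, Hspa1a and Hspa1b among them, past 4-fold lower (12% of all genes). The higher ones were 3 of 16 transcription factors and 2 of 11 other immediate-early genes that entered. The lower ones were 4 of 16, 4 of 11 and 2 of 6 heat shock genes. No member was 4-fold lower in satellite glia (2.35% of all genes), myelinating Schwann (3.48%), non-myelinating Schwann (0.601%), fibroblast (0.663%), endothelial (3.3%) or mural-like barcodes (4.07%), and none was 4-fold higher in neutrophils (10.7%). Ier2 and Btg2 were highest in mural-like barcodes, at 549 and 364 CPM.

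Sensory neuron subtypes were separated by their own markers, and 4 reached 50 barcodes. Itch neuron-like barcodes (55), which carry natriuretic peptide and somatostatin, had 2582 CPM (2526 to 2639) of transcription factors, against 1070 CPM in Mrgprd neuron-like (92 barcodes), 1173 CPM in C-LTMR-like (99), the low-threshold touch fibres, and 1100 CPM in Nefh touch neuron-like barcodes (120). Fos was 476 CPM in the itch class and 193, 95.5 and 220 CPM in the other 3, and Junb was 420 CPM beside 74.6, 52.6 and 81.9 CPM. Jun followed with 465 CPM beside 56.6, 14.2 and 131 CPM, and Atf3 with 448 CPM beside 54.1, 20.0 and 37.6 CPM. The sum of all 32 further immediate-early genes, these included, differed less, at 2963 CPM beside 2889, 2527 and 1886 CPM. The 20 further heat shock genes summed to 6260 CPM, below the 6449 CPM of the Mrgprd class and above the 5689 and 5679 CPM of the others. Heat shock genes were 3990 CPM in the itch class and between 2147 and 3283 CPM in the other 3, and its Hspa1a and Hspa1b sum was 119 CPM beside 8.21 to 33.6 CPM. The itch class stayed below every DRG class but neutrophils and the whole of the neurons for transcription factors. Median depths were 58010 UMIs in the itch class and 76814, 51034 and 10352.5 in the Mrgprd, C-LTMR and Nefh touch classes, and satellite glia markers stood at 0.840% of their own class in the itch class and at 0.587 to 1.31% in the others. The 55 barcodes came from 1 pool, so how the level varied over mice was not measured. The gate left 931 neurons without a subtype.

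Neurons that held a UMI of the vector, and so may project to the injected tendon, were set beside the rest. The 103 with a vector UMI had 1163 CPM of transcription factors and 3070 CPM of heat shock genes, and the 1256 without had 1326 and 3095 CPM. Fos was 182 and 214 CPM, and Atf3 58.2 and 75.7 CPM. Depth differed, with medians of 54348 and 29715.5 UMIs, and a vector UMI is more likely to be seen in a deeper barcode.

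Set side by side, the same kind of cell had different levels in tendon and ganglion. The tendon and DRG files use different gene annotations and the tissues were digested with different enzymes, so levels across them are given as values only. The DRG library had 49538 Y-linked and 23 Xist UMIs, against 39 and 55528 after neurectomy and 6366 and 61571 after sham. Both tendon groups had surgery and dorsiflexion, and the DRG mice a vector injection. Tissue therefore cannot be told apart from sex, treatment or digestion. Macrophage-like barcodes had Fos at 2271 and 2069 CPM in tendon and 413 CPM in the ganglia, Egr1 at 1209 and 857 against 86.3 CPM, and the Hspa1a and Hspa1b sum at 204 and 221 against 910 CPM. Endothelial-like barcodes had summed transcription factors of 7739 and 6946 CPM in tendon and 11910 CPM in the ganglia, and summed heat shock genes of 1436 and 1337 against 3764 CPM. The Hspa1a and Hspa1b sum in endothelium was 169 and 141 CPM in tendon and 602 CPM in the ganglia.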

How the data were processed

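Single-cell libraries of Achilles tendon after sural neurectomy or sham operation and of dorsal root ganglia were analysed, 1 library per group. The authors deposited UMI counts per gene and barcode, and the file headers name Cell Ranger 8.0.1 as their source. Both mm10 and GRCm39 appear as builds in the submitters' processing notes, with no library attached to either, so no coordinate was taken from the files. Annotation and alignment settings were not given in the sources used here.

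Barcodes under 500 genes or over 15% mitochondrial UMIs were dropped. The DRG file writes mitochondrial genes without a prefix, and they were taken by name. Of the DRG markers 2, Trac and Ighm, were not found. Barcodes were gated as the report describes, with classes of at least 50 barcodes described and of at least 100 in both tendon libraries compared. No doublet caller was run, and 1 alternative left out the deepest 5% of barcodes of each class. Within a library, the UMIs of a class were added up and scaled to 1000000. Shares of barcodes with a UMI were taken after thinning each barcode to 1000 UMIs (seed 1), leaving out shallower ones. PCR duplicates are removed by UMIs, and the intervals cover counting error only. The ratio calls were run on simulated Poisson counts, drawn from the sham macrophage-like profile with planted changes larger than 2-fold. That simulation holds counting error alone, so it cannot show how the calls fare with a spread over mice. The members, lists and gates were chosen with earlier results of these data known. Every member was accounted for. Values were given in tendon for members at least 2-fold apart in a class or among the 6 highest of their role, and in the DRG for the 6 highest or members at least 4-fold above the other classes; other members were given by range. Promoter sequence came from RefSeq on GRCm38.p6. Python 3.11.15, numpy 2.4.6, scipy 1.17.1, pandas 2.3.3 and matplotlib 3.10.9 were used.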

Additional observations from a re-analysis of the deposited data

How the results depend on the processing

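No paired analysis was possible because each group had 1 library and the labels give no replicate numbers. Of the results below, leaving out shared barcodes and leaving the non-myelinating Schwann markers out of the gate were alternatives chosen after seeing the data. The count of gene and class pairs at least 2-fold higher was 1 among barcodes with at least 5000 UMIs, where 5 classes remained. The lymphatic class, which held 3 of the 4 calls, was the one lost there. Under the other 10 alternatives the count was between 3 and 5, but the pairs changed. In the lymphatic class Nr4a1 and Dusp5 passed with equal weight, and Nr4a1 and Nr4a3 without the deepest 5%. Nr4a3 also passed at 1000 genes and without shared barcodes, Egr2 with a gate lead of 0.1 and without the low-count filter, and Hspa1a among Xist barcodes. Dusp5 and Hspa1a are not transcription factors. The count lower was 1 without the low-count filter (Arc in Pi16 fibroblasts, log2 -1.41). The median log2 ratio of summed transcription factors, 0.17, was 0.12 with equal weight per barcode, 0.20 at 5000 UMIs or more, 0.12 without the deepest 5% of barcodes, 0.23 among barcodes with Xist and no Y-linked UMI and 0.14 without shared barcodes. That of other immediate-early genes, 0.17, was 0.12 with equal weight, 0.21 with a gate lead of 0.1 and 0.23 among Xist barcodes. That of heat shock genes, 0.10, was 0.17 with a lead of 0.1, 0.041 without the deepest 5%, 0.19 among Xist barcodes and 0.024 without shared barcodes. In DRG neurons the log2 level over the median class was -3.21 for transcription factors and became -3.14 at 5% mitochondrial UMIs, -3.04 with equal weight, -3.22 at 5000 UMIs, -3.05 with a lead of 0.1, -3.16 without the deepest 5% and -2.98 without the Schwann markers. For other immediate-early genes it was -3.63 and became -3.74 at 1000 genes, -3.43 at 5% mitochondrial UMIs, -3.27 with equal weight, -2.998 with a lead of 0.1, -3.68 without the deepest 5% and -3.41 without the Schwann markers. For heat shock genes it was 0.14 and became 0.068 at 1000 genes, 0.37 at 5% mitochondrial UMIs, 0.44 with equal weight, 0.30 at 5000 UMIs, 0.15 with a lead of 0.1 and 0.32 without the Schwann markers. Of the 18 summed ratios by role and class, all kept their sign at 1000 genes, at 4 markers and when centred on all genes, 16 at 5% mitochondrial UMIs, with a lead of 0.1, without the deepest 5%, among Xist barcodes and without shared barcodes, 15 with equal weight, and 14 of 15 at 5000 UMIs. The lowest class ratio of Socs3 turned to -0.30 with equal weight and -0.26 without the deepest 5%. The causes of these shifts were not tested. Between 22 and 27 members were at least 4-fold lower in neurons under the 9 alternatives run. With 1 library per group, intervals hold counting error and not the spread over mice.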
